A study of Mus musculus with 4 samples.

Results

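The insulin-like growth factor (IGF) binding protein genes of the mouse, Igfbp1 to Igfbp7, were examined for the repressive histone mark H3K27me3 in erythro-myeloid progenitors (EMPs). The members were chosen by gene symbol, which gave 7 of the 21911 protein-coding genes considered. In the series, H3K27me3 and an IgG control were each profiled by CUT&RUN in 500 and in 15000 EMPs, giving 4 libraries, 1 for each antibody and cell number. EMPs are transient blood progenitors of the yolk sac and were sorted from E10.5 embryos on the C57BL/6 background. The genotype given for all 4 libraries is Ezh2fl/fl; Tie2-Cre+/+ together with the words wild type, and the study describes the cells as wild type. It was read in that way here, so every library, IgG included, carried the floxed allele and none was labelled as lacking Ezh2. The Tie2 promoter drives Cre in endothelium and in the blood cells that arise from it. The label does not say whether +/+ stands for Cre present or absent. It therefore does not settle by itself whether Cre was active in these cells. Neither the number of yolk sacs pooled nor a second library was given, so no value below has a replicate check and no test was run.

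IGF binding proteins are secreted proteins that hold IGF1 and IGF2 outside the cell and control how much ligand reaches the IGF1 receptor. IGFBP1 to IGFBP6 bind IGFs tightly, whereas IGFBP7 binds them weakly and is known from blood vessels and basement membranes. H3K27me3 is deposited by Polycomb repressive complex 2, whose catalytic subunit is Ezh2 or Ezh1, and is found over the promoters of many developmental genes that are kept silent. In CUT&RUN an antibody tethers a nuclease to the marked chromatin and the released DNA fragments are sequenced, so that a peak marks a stretch where fragments were more frequent than a caller required.

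The 500-EMP list held 10223 H3K27me3 peaks and the 15000-EMP list 15282. The peak lists used here carry positions only. Signal tracks were not analysed here, so no read count or height is given for any peak. In the study's command listing the IgG libraries served as the control for peak calling, and they entered this description only in that way. Cell number could not be told apart from other differences between the libraries. The 500-EMP library had 17 cycles of amplification, 76 bp reads and a stricter peak threshold of 0.01, against 16 cycles, 59 bp reads and 0.05 for the 15000-EMP library, and the sequencers differed. The study's reporting summary also gives the 500-EMP library fewer reads and a much lower alignment rate, so fewer usable reads stood behind its peaks. In a bulk library, mark in fewer cells and less mark per cell cannot be told apart. Of 8 genes that define or are used to sort EMPs (Kit, Itga2b, Fcgr3, Fcgr2b, Runx1, Myb, Spi1 and Gata1), 0 had a peak within 3 kb of the start in either list, where 9.94% of all protein-coding genes had one with 500 EMPs and 17.0% with 15000 EMPs. Of 6 endothelial genes, 1 did with 500 EMPs (Sox17) and 3 with 15000 EMPs (Kdr, Sox17 and Sox18), while Cdh5, Tek and Pecam1 did in neither list. With 15000 EMPs the cover within 3 kb was 274 bp at Kdr, 2790 bp at Sox18 and 6001 bp at Sox17. A repressive mark does not measure expression, and so few genes can show little against these shares, so the counts do not settle which cells were present.

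The DNA before the starts of 5 members is shown because these promoters range from fully covered to uncovered by peaks. Each run is the 250 bases before the start in the RefSeq promoter table of build GRCm38.p6 (mm10), 5′ to 3′ on the gene's strand, with CG dinucleotides (CpG sites) in capitals. All 7 members were found in that table. They are Igfbp3 at chr11:7213924-7214173 on the minus strand, Igfbp1 at chr11:7197537-7197786 on the plus strand, Igfbp2 at chr1:72824230-72824479 on the plus strand, Igfbp4 at chr11:99040994-99041243 on the plus strand and Igfbp6 at chr15:102143936-102144185 on the plus strand. The last run is the 175 bp peak of the 500-EMP library upstream of Igfbp2, at chr1:72823831-72824005.
Igfbp3: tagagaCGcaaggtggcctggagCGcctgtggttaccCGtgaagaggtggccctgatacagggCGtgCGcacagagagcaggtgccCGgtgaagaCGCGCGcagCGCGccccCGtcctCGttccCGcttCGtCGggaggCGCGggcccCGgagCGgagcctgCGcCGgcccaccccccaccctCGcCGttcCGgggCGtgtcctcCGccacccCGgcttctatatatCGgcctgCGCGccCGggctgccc
Igfbp1: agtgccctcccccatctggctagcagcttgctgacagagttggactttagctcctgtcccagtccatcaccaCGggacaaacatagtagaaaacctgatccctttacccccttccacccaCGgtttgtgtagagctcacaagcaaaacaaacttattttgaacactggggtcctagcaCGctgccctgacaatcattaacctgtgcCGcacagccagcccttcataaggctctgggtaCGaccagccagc
Igfbp2: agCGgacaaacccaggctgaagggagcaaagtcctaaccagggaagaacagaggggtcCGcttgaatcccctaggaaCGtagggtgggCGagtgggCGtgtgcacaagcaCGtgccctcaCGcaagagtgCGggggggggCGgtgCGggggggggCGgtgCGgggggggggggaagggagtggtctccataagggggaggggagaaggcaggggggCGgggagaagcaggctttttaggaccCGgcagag
Igfbp4: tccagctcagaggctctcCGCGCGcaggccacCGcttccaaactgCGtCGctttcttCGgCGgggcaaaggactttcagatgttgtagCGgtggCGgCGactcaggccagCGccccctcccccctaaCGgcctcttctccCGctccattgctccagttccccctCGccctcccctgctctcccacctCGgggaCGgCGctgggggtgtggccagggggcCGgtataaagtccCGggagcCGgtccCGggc
Igfbp6: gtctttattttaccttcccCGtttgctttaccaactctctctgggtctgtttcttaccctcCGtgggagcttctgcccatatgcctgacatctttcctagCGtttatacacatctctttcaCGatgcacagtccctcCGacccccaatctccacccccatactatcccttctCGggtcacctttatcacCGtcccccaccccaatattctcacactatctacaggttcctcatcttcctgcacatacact
Igfbp2 peak, 500 EMPs: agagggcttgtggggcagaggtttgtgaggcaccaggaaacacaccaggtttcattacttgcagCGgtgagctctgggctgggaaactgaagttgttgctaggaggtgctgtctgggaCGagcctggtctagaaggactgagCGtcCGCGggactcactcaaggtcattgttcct

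The run before Igfbp3 held 32 CpG sites at 73.2% G or C, and peaks covered 218 of its 250 bases with 500 EMPs and all 250 with 15000 EMPs. The run before Igfbp4 held 22 CpG sites at 69.2% G or C and was covered by 0 bases in both lists. The Igfbp2 run held 14 CpG sites, and 35 of its bases were covered with 15000 EMPs. It contains an uninterrupted stretch of 12 G bases, a feature that, as 12 G or 12 C in a row, was present in the 250 bases before 1.46% of all starts (319 of 21911). This length was taken from Igfbp2 after its sequence was seen. The Igfbp6 run had 7 CpG sites at 49.6% G or C and was fully covered with 15000 EMPs, while the Igfbp1 run, with 5 CpG sites, was covered by 0 bases. At least 1 CG was present before 92.4% of all starts, with a median of 8, so its presence alone is common. These shares over all genes were read before GENCODE starts, which for Igfbp2 and Igfbp6 lie 23 and 176 bp downstream of the RefSeq starts used for the printed runs. CpG content and cover did not follow the same order among these promoters.

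With 500 EMPs, a peak lay within 3 kb of the start of 3 of the 7 genes, Igfbp2, Igfbp3 and Igfbp5, where 9.94% of all protein-coding genes had one. With 15000 EMPs the same 3 genes were joined by Igfbp6 and Igfbp7, giving 5 of 7 against 17.0% of all genes. Igfbp1 and Igfbp4 had no peak within 3 kb of the start in either list. When the whole gene and 10 kb on either side were considered, the counts were 3 of 7 (all genes, 15.1%) and 6 of 7 (all genes, 25.0%), the sixth being Igfbp1 by way of a peak inside its neighbour Igfbp3. These shares stood above those over all genes, but 7 genes, 4 of them in neighbouring pairs, are few and not independent of each other.

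The genes held 4 of the 10223 peaks with 500 EMPs and 11 of the 15282 with 15000 EMPs. The 4 peaks were 175 to 994 bp wide with a median of 381 bp, near the 363 bp median of their list, and covered 1931 bp. The 11 peaks were 174 to 3569 bp wide with a median of 1455 bp, above the list median of 770 bp, and covered 16647 bp. Both list medians cover peaks at any distance from a start, and peaks near starts were not set apart. Each of the 4 narrow peaks overlapped a 15000-EMP peak, as did 91.2% of the whole 500-EMP list, and 5 of the 11 broader peaks were met by a 500-EMP peak, where 32.2% of the whole 15000-EMP list were.

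Igfbp2 lies on the plus strand at chr1:72824503-72852474 and encodes a binding protein abundant in the fetus that also carries an integrin-binding motif. With 500 EMPs it had a peak of 175 bp, 672 to 498 bp upstream of the start, and another of 332 bp, 866 to 1197 bp downstream. The first lay outside the gene, while the second covered 226 bp of intron and 106 bp of noncoding exon. With 15000 EMPs 3 peaks were present. A 174 bp peak lay 2100 to 1927 bp upstream, a 1397 bp peak 1635 to 239 bp upstream, and a 3569 bp peak ran from 56 to 3624 bp downstream over 3010 bp of intron, 385 bp of coding sequence and 174 bp of noncoding exon. The start itself lay in a 294 bp gap between the last 2 of them, from 238 bp upstream to 55 bp downstream. The 12 G stretch shown above lies in this gap.

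Igfbp5 lies on the minus strand at chr1:72857932-72874884 and encodes a binding protein that also binds the extracellular matrix. With 500 EMPs it had a single peak of 994 bp, 1538 to 545 bp upstream of the start. This was the widest of the 4 narrow peaks. With 15000 EMPs 4 peaks extended from 2582 bp upstream to 3869 bp downstream. Their widths, from the upstream end, were 1167, 1766, 2169 and 580 bp. The 1766 bp peak covered the start, from 1141 bp upstream to 624 bp downstream. The 500-EMP peak touched both upstream peaks and lay across the 274 bp gap between them, so 720 of its 994 bp (72.4%) were overlapped. Contact with at least 2 of the 15000-EMP peaks was uncommon and was seen for 223 peaks in the 500-EMP list (2.18%).

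Igfbp3 lies on the minus strand at chr11:7206086-7213923 and encodes the main IGF carrier of adult serum. With 500 EMPs it had a 430 bp peak from 462 to 33 bp upstream of the start, over the CpG-dense run shown above. With 15000 EMPs a 1455 bp peak reached from 1312 bp upstream to 142 bp downstream and so covered the start. A further 2203 bp peak lay 435 to 2637 bp downstream, with 2099 bp in intron and 104 bp in coding sequence. A gap of 292 bp separated the peaks.

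**Figure D1:**
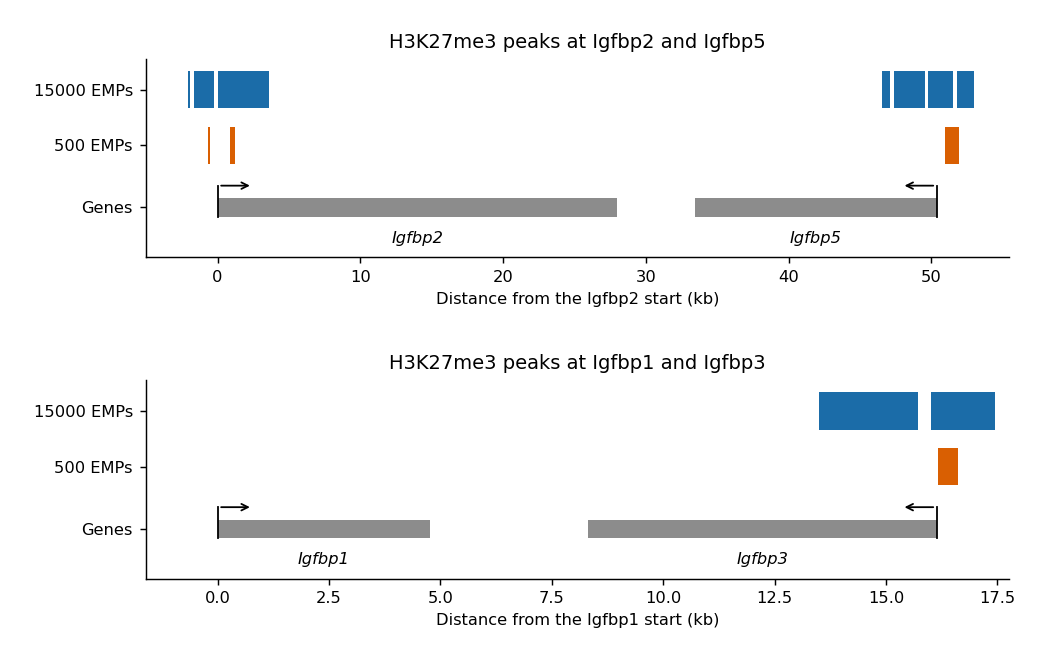
H3K27me3 peaks of the 500-EMP and 15000-EMP libraries along the neighbouring pairs Igfbp1 and Igfbp3 and Igfbp2 and Igfbp5, drawn to scale with distance in kb and arrows for the direction of transcription. Peaks gather at the starts of Igfbp2, Igfbp3 and Igfbp5, and the stretch between the genes of each pair holds 0 covered bp in both libraries.

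Igfbp6 lies on the plus strand at chr15:102144362-102149511 and encodes the member that prefers IGF2 to IGF1. It had no 500-EMP peak nearer than 137725 bp to its start. With 15000 EMPs a single 1833 bp peak spanned the start, from 800 bp upstream to 1032 bp downstream, over 510 bp of intron, 337 bp of coding sequence and 186 bp of noncoding exon. Its RefSeq start lies 176 bp upstream of the GENCODE start used here and was also inside the peak.

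Igfbp7 lies on the minus strand at chr5:77349240-77408041 and is the longest gene of the family at 58802 bp. Its nearest 500-EMP peak was 2253893 bp from the start. With 15000 EMPs it had a single peak of 334 bp, 577 to 244 bp upstream, and 0 covered bp inside the gene. This was the smallest cover among the 5 genes with a peak.

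Igfbp1, on the plus strand at chr11:7197782-7202546, encodes a binding protein made mainly in liver and decidua and raised by fasting. The nearest peak to its start was 16174 bp away with 500 EMPs and 13504 bp away with 15000 EMPs, and in both cases that peak belonged to Igfbp3. Igfbp4, on the plus strand at chr11:99041244-99054392, encodes a binding protein that is cleaved by the protease PAPPA. Its nearest peaks were 78549 bp and 47176 bp from the start in the 500-EMP and 15000-EMP lists.

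**Figure D2:**
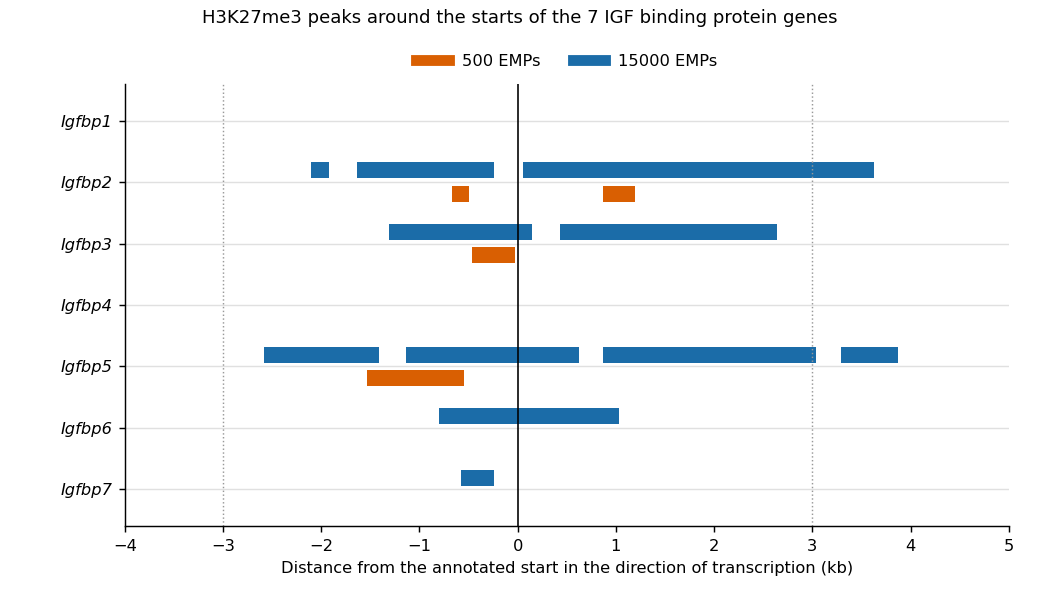
H3K27me3 peaks of both libraries around the start of each of the 7 genes, with distance from the start in kb on the horizontal axis, turned so that transcription runs to the right. With 500 EMPs 0 starts are covered, and with 15000 EMPs the starts of Igfbp3, Igfbp5 and Igfbp6 are.

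The place of the peaks about the start differed between the lists. With 500 EMPs, 0 of the 3 genes with a nearby peak had the start itself covered, where 14.1% of all 2177 genes with a nearby peak did. With 15000 EMPs the start was covered in 3 of 5, Igfbp3, Igfbp5 and Igfbp6, against 50.8% of 3726 genes. Of the 500-EMP cover, 82.8% lay outside the member genes, 11.7% in intron and 5.49% in noncoding exon, with 0 bp in coding sequence. Other genes were not considered in this division. Of the 15000-EMP cover, 49.0% lay in intron, 38.0% outside the member genes, 6.72% in noncoding exon and 6.3% in coding sequence. These shares describe the peaks of the family and were not computed for the whole lists. The 15000-EMP peaks reached downstream of the start at 4 of the 5 genes, all but Igfbp7, where 91.4% of all genes with a nearby peak had cover in the 3 kb downstream. The 500-EMP peaks did so at 1 of 3, Igfbp2, against 83.2%.

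To compare members of different length, the covered base pairs were counted in the 6001 bp centred on each start. With 500 EMPs Igfbp5 had 994 bp, Igfbp2 507 bp and Igfbp3 430 bp, and the other 4 genes had 0. With 15000 EMPs the order was Igfbp5 with 5067 bp (84.4% of the window), Igfbp2 with 4516 bp (75.3%), Igfbp3 with 3658 bp (61.0%), Igfbp6 with 1833 bp (30.5%) and Igfbp7 with 334 bp (5.57%), and 0 for Igfbp1 and Igfbp4. The order of the 3 genes covered in both lists was the same. With 1 library for each cell number, no spread is known for any neighbours in that order.

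Among the 3726 genes with a nearby 15000-EMP peak the median cover was 2744.5 bp. Igfbp5 was covered more than 85.5% of them, Igfbp2 more than 77.5% and Igfbp3 more than 64.5%, whereas Igfbp6 and Igfbp7 exceeded 33.6% and 5.61%. Among the 2177 genes of the 500-EMP list the median was 789 bp, and Igfbp5, Igfbp2 and Igfbp3 exceeded 57.9%, 37.1% and 31.5%. The cover with 15000 EMPs was 8.91 times that with 500 EMPs at Igfbp2, 8.51 times at Igfbp3 and 5.1 times at Igfbp5, where the median over the 2155 genes covered in both was 4.26.

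**Figure D3:**
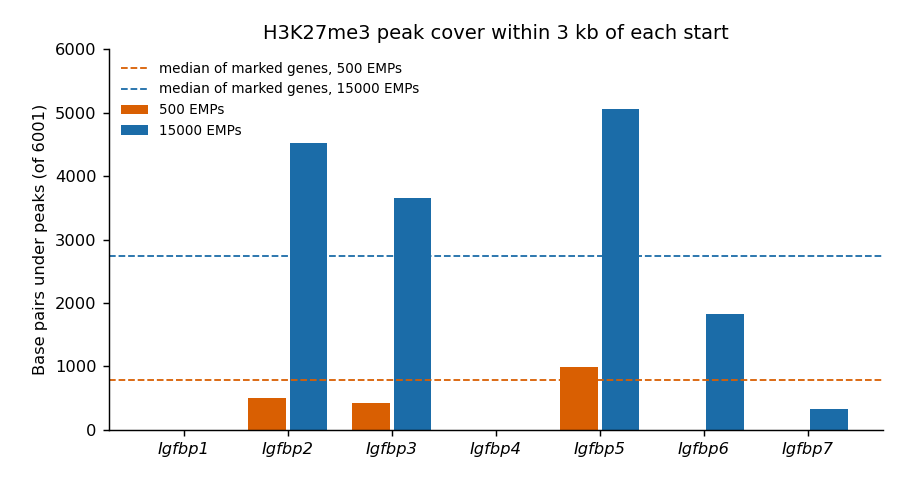
Base pairs covered by H3K27me3 peaks within 3 kb of the start of each gene in the 500-EMP and 15000-EMP libraries (bars, 1 library each and so no error bars), with dashed lines at the median of all genes with a nearby peak, 789 and 2744.5 bp. With 15000 EMPs cover falls from 5067 bp at Igfbp5 to 334 bp at Igfbp7 and is 0 at Igfbp1 and Igfbp4.

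Downstream cover exceeded upstream cover at 4 of the 5 genes with 15000 EMPs. It was 2945 bp against 1571 bp at Igfbp2, 2346 bp against 1312 bp at Igfbp3, 2759 bp against 2308 bp at Igfbp5 and 1033 bp against 800 bp at Igfbp6, while Igfbp7 had upstream cover alone. Over all genes with a nearby peak in that list, 69.8% had more cover downstream. With 500 EMPs Igfbp3 and Igfbp5 had upstream cover alone and Igfbp2 had 332 bp downstream against 175 bp upstream, where 58.4% of all genes had more downstream.

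The 15000-EMP peaks of Igfbp2, Igfbp3 and Igfbp5 were broken by 6 gaps of 242 to 294 bp. The smallest gap anywhere in that list was 237 bp, and 14.5% of its gaps were 300 bp or less. Counted from end to end, the runs of peaks measured 6452 bp at Igfbp5, 5725 bp at Igfbp2 and 3950 bp at Igfbp3. Whether each run is 1 marked domain or several cannot be read from positions alone.

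The recovery of a gene with 500 EMPs followed its cover with 15000 EMPs. Of all 3726 genes with a nearby 15000-EMP peak, 57.8% also had one with 500 EMPs, and among the IGF binding protein genes 3 of 5 did. By cover, this share was 4.7% of genes below 500 bp, 31.7% from 1000 to 1999 bp, 77.5% from 3000 to 3999 bp, 91.1% from 4000 to 4999 bp and 100% of the 575 genes from 5000 bp. Igfbp7 and Igfbp6, which had no 500-EMP peak, fell in the first and second of these classes, and Igfbp3, Igfbp2 and Igfbp5 in the last 3. The presence or absence of the 5 genes in the 500-EMP list therefore matched the more frequent outcome of each class.

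**Figure D4:**
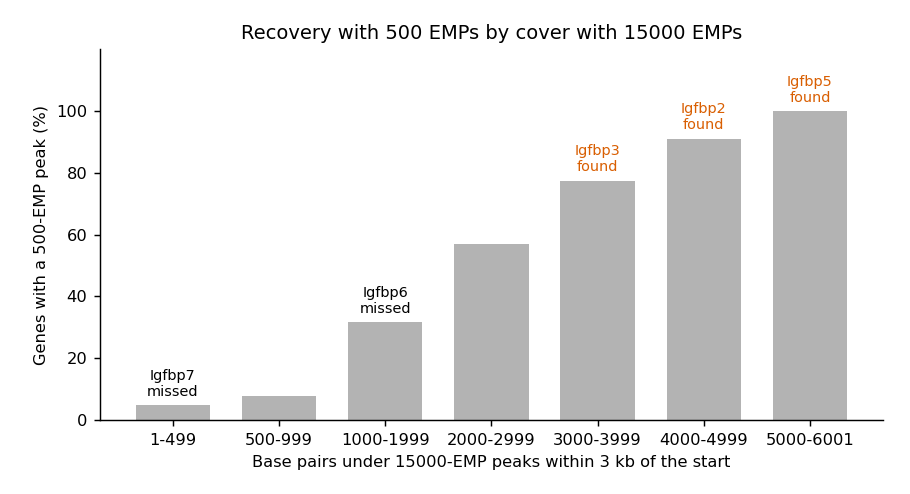
Share of genes with a 500-EMP peak within 3 kb of the start, in percent, against the base pairs covered there with 15000 EMPs, over the 3726 genes covered with 15000 EMPs, with the 5 covered IGF binding protein genes marked. The share rises from 4.7% in the lowest class, where Igfbp7 lies, to 100% in the highest, where Igfbp5 lies.

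Of the 7 genes, 4 stand in pairs that face each other tail to tail. Igfbp1 and Igfbp3 have starts 16141 bp apart and ends 3539 bp apart on chromosome 11, and Igfbp2 and Igfbp5 have starts 50381 bp apart and ends 5457 bp apart on chromosome 1. The DNA between the ends held 0 covered bp in either pair and either list. In the Igfbp2 and Igfbp5 pair both starts had peaks nearby, on both sides of the Igfbp2 start in both lists, upstream of the Igfbp5 start with 500 EMPs and over it with 15000 EMPs. There was an unbroken stretch of 42887 bp free of peaks between the starts with 15000 EMPs and 49184 bp with 500 EMPs. In the Igfbp1 and Igfbp3 pair peaks lay about the start of Igfbp3 alone, and 13504 bp from the start of Igfbp1 to the first Igfbp3 peak was free of them with 15000 EMPs.

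With 15000 EMPs the next peaks outside the pairs lay 244631 bp to the left and 1158756 bp to the right of the Igfbp2 and Igfbp5 peaks, and 144339 bp and 1252653 bp from the Igfbp3 peaks. The long distance on the right of Igfbp3 is mostly free of protein-coding genes, since the next one begins 1217728 bp from Igfbp3.

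CpG content was read from the genome in 1001 bp about each start, since Polycomb marks are often found at CpG islands. Igfbp3 had 120 CpG sites, more than 97.6% of the 21911 genes, Igfbp7 had 94, Igfbp2 81 and Igfbp4 80. Igfbp6, Igfbp5 and Igfbp1 had 43, 37 and 34, close to the median of 41 over all genes. The median was 56 for genes with a nearby 15000-EMP peak and 34 for genes without. Cover did not track CpG content within the family. Igfbp5, with 37 sites, had the most cover, and Igfbp4 and Igfbp2, with 80 and 81 sites, had 0 and 4516 bp.

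**Figure D5:**
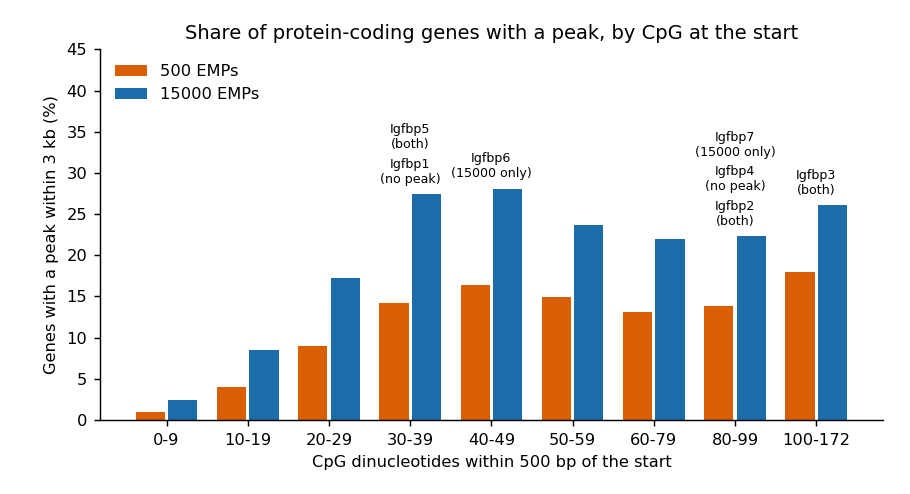
Share of protein-coding genes with an H3K27me3 peak within 3 kb of the start, in percent, by the number of CpG sites in the 1001 bp about the start, for both libraries, with the class of each IGF binding protein gene marked. With 15000 EMPs the share is 2.45% below 10 CpG sites, 27.4% from 30 to 39 (Igfbp1 and Igfbp5), highest at 28.1% from 40 to 49 (Igfbp6), 22.3% from 80 to 99 (Igfbp2, Igfbp4 and Igfbp7) and 26.1% from 100 (Igfbp3).

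CpG content was above the list median in 3 of the 4 peaks with 500 EMPs and in 9 of the 11 with 15000 EMPs. Peaks of the family had a median of 4.29 CpG sites per 100 bp with 500 EMPs (list median 1.49) and 2.69 with 15000 EMPs (list median 1.62), where the genome had 0.826. The list medians cover peaks at any distance from a start. By the authors' distances, 4 of the 4 and 10 of the 11 family peaks lay within 3 kb of one. Peaks near the starts of other genes were not set apart, so these values are not shown to be particular to the family. The peak over the start of Igfbp3 had 5.77 CpG sites per 100 bp with 15000 EMPs, more than 97.1% of its list, and the 500-EMP peak inside it had 7.91. Below their list medians were the only 500-EMP peak of Igfbp5, with 1.11 sites per 100 bp, and with 15000 EMPs the 174 bp peak of Igfbp2, with 1.15, and the 1167 bp peak of Igfbp5, with 1.29.

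The other genes of the pathway were taken from a list of 31. A peak lay within 3 kb of the start of 13 of them with 500 EMPs (41.9%) and 15 with 15000 EMPs (48.4%), beside the 9.94% and 17.0% of all genes. Among the 4 ligands, Igf2, the fetal growth factor, had 576 bp covered with 500 EMPs and 2156 bp with 15000 EMPs in the window, all downstream of the start of its gene record, and Igf1, Ins1 and Ins2 had 0. Among the receptors, Igf2r, which clears IGF2, had 503 and 1748 bp and the orphan insulin receptor relative Insrr 1495 and 5764 bp, whereas Igf1r and Insr, the signalling receptors, had 0.

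All 4 of the intracellular adaptors chosen here were covered in both lists, where 9.94% of all genes were with 500 EMPs and 17.0% with 15000 EMPs. Other adaptors were not examined. With 500 and 15000 EMPs, Irs1 had 817 and 4329 bp, Irs2 447 and 2206 bp, Irs4 1197 and 4577 bp and Grb10, an adaptor that restrains growth signals, 871 and 4780 bp. Of 5 proteases and inhibitors that act on the binding proteins, 3 were covered in both lists, beside the same shares of all genes. Pappa, which frees IGF from IGFBP4, had 668 and 3551 bp, its inhibitor Stc1 had 309 and 3266 bp, and the serine protease Htra1 had 1609 and 5363 bp. Igfals, whose product joins IGFBP3 or IGFBP5 and an IGF in the serum complex, had 0, as did the 3 genes for IGF2 mRNA-binding proteins.

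Of 10 genes for proteins with an IGFBP-like domain, 3 were covered with 500 EMPs and 5 with 15000 EMPs, where 9.94% and 17.0% of all genes were. Igfbpl1, an IGFBP-like secreted protein of neurons, had 1885 and 5486 bp, Kazald1 326 and 2501 bp and Ccn1 805 and 4621 bp. Ccn2 and Ccn3, both matricellular proteins, had 0 bp with 500 EMPs and 363 and 1916 bp with 15000 EMPs.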

How the data were processed

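H3K27me3 and IgG CUT&RUN libraries of 500 and 15000 EMPs were aligned by the authors with Bowtie2 2.2.1, filtered with SAMtools 1.9 and called for broad peaks against IgG with MACS2 2.1.2 at p thresholds of 0.01 (500 EMPs) and 0.05 (15000 EMPs), and the submitters' notes also name deepTools 3.5.1. The authors' command listing names the other library under each threshold, and each deposited list was assigned by its label. The deposited files used here hold peak coordinates in mm10 with no score and no count per peak, plus an annotation to the nearest gene whose distances were used as an alternative. Peaks were placed against GENCODE M21 gene starts with Python 3.11.15, pandas 2.3.3 and numpy 2.4.6, and plotted with matplotlib 3.10.9. A gene was called near a peak within 3 kb of its start, and peaks in the gene or within 10 kb were listed. Overlap required 1 bp. One record was kept for each symbol, and mitochondrial genes were left out. All 7 members were named, with each pathway gene that had a nearby peak. The overlap code was tested on simulated peaks. The members and lists were chosen with earlier results of these data known. The alternatives using the RefSeq start and the start itself were chosen after seeing the data.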

Additional observations from a re-analysis of the deposited data

How the results depend on the processing

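Across 9 results, 46 of 52 alternative values differed by less than 1.5 times from the value reported. The members near a peak numbered 3 and 5 at limits of 1, 5 and 10 kb, by the authors' distances and from other annotated starts. When the peak had to lie on the start itself, they numbered 0 with 500 EMPs and 3 with 15000 EMPs. Joining peaks within 1 kb or within 3 kb turned the 11 peaks of the 15000-EMP list into 5, and joining within 3 kb raised the 500-EMP cover from 1931 to 3294 bp by bridging the Igfbp2 start. Of the 4 overlapping 500-EMP peaks, 0 overlapped by at least 50% of both peaks. At Igfbp2 and Igfbp3 the narrow peaks lay inside much broader ones, and at Igfbp5 the 994 bp peak was split across a gap, with 597 and 123 bp shared.

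No paired analysis was possible because each group had 1 library and no test was run. Signal tracks were not analysed here, and a gene with no peak is not shown to lack the mark, and the effect of cell number, depth, read length and threshold on the missing Igfbp6 and Igfbp7 peaks was not tested.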
